A study of Mus musculus with 14 samples.

Results

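The CXC and CX3C chemokines measured here were the 8 genes Cxcl1, Cxcl2, Cxcl5, Cxcl9, Cxcl10, Cxcl12, Cxcl14 and Cx3cl1, taken as every probe whose gene name on the array was one of these. That gave 10 of the 41174 non-control probes, since Cxcl12 and Cx3cl1 had 2 probes each. RNA came from mast cells that had been raised from mouse bone marrow in IL-3 over 4 to 6 weeks (BMMCs), an immature form of the cell. Cocultured cells had then been kept for 96 h on a monolayer of Swiss 3T3 cells, a mouse fibroblast line, with 100 ng/ml stem cell factor, and the nonadherent cells were collected. All donor mice carried the same strain label, a cross that involves C57BL/6, and were labelled knockout or wild-type for Pla2g3, which encodes a secreted phospholipase A2. There were 3 arrays of knockout cocultured cells, 4 of wild-type cocultured cells, 4 of knockout BMMCs and 3 of wild-type BMMCs. Per the labels, over 99% of the cocultured harvest and over 97% of the BMMCs were mast cells by surface Kit and the IgE receptor. Nothing in the labels says whether replicates came from separate mice, so p-values measure only the spread between these samples.

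Chemokines are small secreted proteins that draw leukocytes along a gradient by binding receptors that signal through G proteins. Cxcl1, Cxcl2 and Cxcl5 attract neutrophils through Cxcr2 and are classic targets of the transcription factor NF-kB after TNF or IL-1. Cxcl9 and Cxcl10 attract activated T cells through Cxcr3 and are induced by interferons, while Cxcl12, a product of stromal cells such as fibroblasts, binds Cxcr4 and the scavenger receptor Ackr3. Cx3cl1 is made as a membrane-anchored protein that is cut free by the proteases ADAM10 and ADAM17 and binds Cx3cr1. Mast cells and fibroblasts can both make several of these proteins.

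The probes for Cxcl1, Cxcl2, Cxcl5, Cxcl9 and Cxcl10 all lie on chromosome 5 of the mouse build mm9 named in the scanner files. The Cxcl1 probe is at chr5:91321845-91321904, that of Cxcl2 at chr5:91334534-91334593 and that of Cxcl5 at chr5:91190205-91190264. Cxcl10 was read at chr5:92775781-92775840 and Cxcl9 at chr5:92752191-92752250. The Cxcl12 probe lies at chr6:117131227-117131286, that of Cx3cl1 at chr8:97306185-97306244 and that of Cxcl14 at chr13:56390078-56390137.

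Promoters of 7 of the 8 genes were matched in the RefSeq promoter table (build GRCm38.p6, 250 bases before the annotated start and 50 from it on), all except Cxcl5. They were searched on both strands for a general NF-kB pattern, GGGNNNTTCC, and for GAAANNGAAA, the core of the interferon-stimulated response element (ISRE). The first pattern occurred in 3 of the 7 promoters and in 5.56% of all 32851 promoters in the table. The second occurred in 2 of the 7, Cxcl10 and Cxcl14, and in 3.44% of all promoters. The 3 promoters with an NF-kB match are shown because these genes were higher on cocultured arrays and differ there in how they follow the fibroblast signal. Capitals mark the matches to either pattern, on either strand.
Cxcl1, chr5:90890995-90891294, plus strand: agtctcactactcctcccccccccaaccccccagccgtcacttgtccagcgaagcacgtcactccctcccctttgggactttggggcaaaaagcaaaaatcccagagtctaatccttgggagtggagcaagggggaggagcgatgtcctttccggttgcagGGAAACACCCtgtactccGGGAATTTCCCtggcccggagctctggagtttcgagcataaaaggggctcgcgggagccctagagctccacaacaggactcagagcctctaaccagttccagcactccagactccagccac
Cxcl2, chr5:90903649-90903948, plus strand: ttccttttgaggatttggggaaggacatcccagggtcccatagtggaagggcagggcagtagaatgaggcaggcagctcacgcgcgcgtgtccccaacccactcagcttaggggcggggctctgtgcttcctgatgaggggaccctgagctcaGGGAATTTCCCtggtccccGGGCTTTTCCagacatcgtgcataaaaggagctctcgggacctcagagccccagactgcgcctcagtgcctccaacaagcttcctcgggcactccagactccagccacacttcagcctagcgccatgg
Cxcl10, chr5:92348840-92349139, minus strand: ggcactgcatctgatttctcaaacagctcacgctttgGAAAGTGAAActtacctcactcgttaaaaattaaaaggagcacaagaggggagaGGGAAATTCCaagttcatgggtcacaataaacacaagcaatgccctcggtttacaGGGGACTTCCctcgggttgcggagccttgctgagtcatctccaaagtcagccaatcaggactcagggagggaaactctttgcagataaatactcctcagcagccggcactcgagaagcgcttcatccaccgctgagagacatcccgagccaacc
In Cxcl1 a match began 71 bases before the start and in Cxcl2 97 bases before it, and both read GGGAATTTCC. Each of these overlapped a match on the other strand shifted by 1 base, GGGAAATTCC. Cxcl1 held 1 further match, on the other strand 80 to 89 bases before the start, and Cxcl2 a second on the gene strand 69 to 78 bases before it. In Cxcl10 the NF-kB matches began 159 and 104 bases before the start and the ISRE match 213 bases before it. The promoters of Cxcl9, Cxcl12 and Cx3cl1 held neither set of letters in this window. A match is a description of the letters and does not show that a factor binds there.

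**Figure D1:**
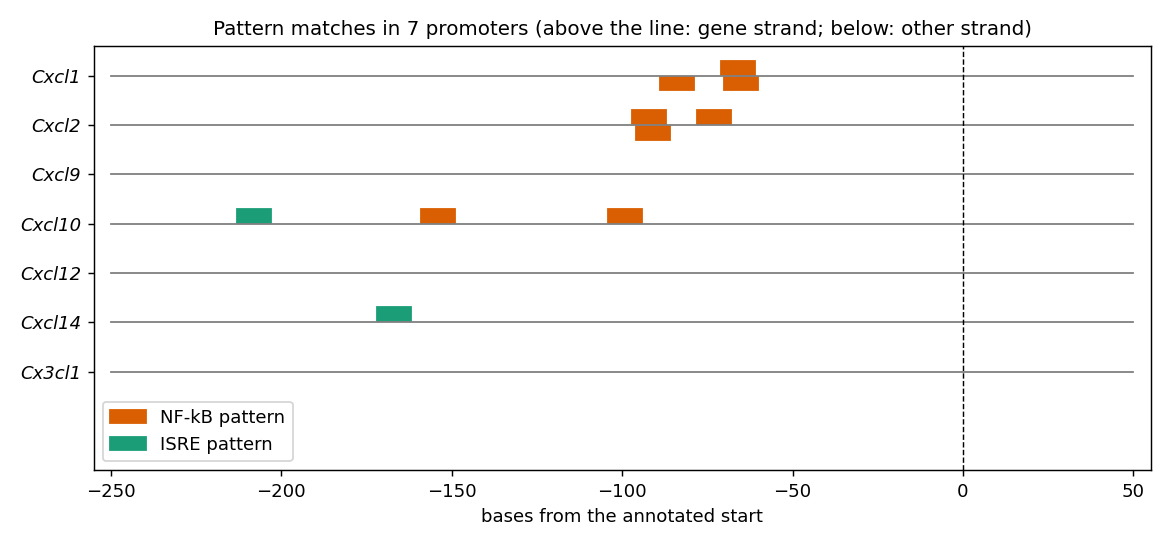
Matches to the NF-kB pattern (orange) and the ISRE pattern (green) in 7 promoters, by distance in bases from the annotated start (dashed line); boxes above each line are on the gene's own strand and boxes below on the other. Cxcl1, Cxcl2 and Cxcl10 hold NF-kB matches, and Cxcl10 and Cxcl14 hold ISRE matches.

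On each array 42.6% to 55.9% of probes were well above background, and precision is limited by how many arrays there are. A level below is the log2 of a probe's signal after division by its array's 75th percentile, so 0 is that percentile, and a difference of 1 is a factor of 2. The 14 arrays came from 4 slides, of which slide 4 was scanned on another day. Its cocultured arrays, knockout replicate 3 and wild-type replicate 3, stood apart from their genotype. Across 15846 genes, knockout replicate 3 correlated at a mean r of 0.915 with the other knockout cocultured arrays and of 0.936 with the wild-type ones, and for wild-type replicate 3 the means were 0.908 with its own genotype and 0.954 with the other. Wild-type cocultured replicate 1 also stood nearer to the knockout arrays, with 0.946 against 0.936 for its own genotype. The place of the Pla2g3 probe relative to the deleted part is not given in the sources used here. It was therefore not used to check the labels. It read -3.21, -1.78 and -1.97 in knockout cocultured cells, -4.33, -3.25, -4.14 and -2.22 in wild-type cocultured cells, -1.43, -1.31, -1.60 and -1.96 in knockout BMMCs and -3.75, -4.69 and -2.95 in wild-type BMMCs. It was thus not lower in the cells labelled knockout, on either side of coculture. In BMMCs every knockout array read higher than every wild-type one (log2 difference 2.22), though no gene passed in that comparison. Only 1 of the 3 wild-type BMMC arrays was well above background in Pla2g3, so that difference rests partly on dim readings. The share of all genes without overlap is not given here. After coculture the genotypes overlapped in Pla2g3. On slides 2 and 4 the array labelled knockout cocultured was higher in Pla2g3 than the wild-type one, by at least 2.39 and 2.08 on the log2 scale. Whether the labels of the cocultured arrays of slide 4 were exchanged was not tested, and every genotype difference below rests on the labels as given.

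Mast cell markers were well above background in every group: all 7 tested of 8 were so on every array. Their summed level, in multiples of the 75th percentile, was 1145 to 1986 in knockout cocultured cells, 1222 to 1800 in wild-type cocultured cells, 908 to 1269 in knockout BMMCs and 1284 to 1523 in wild-type BMMCs. Of the 7, 2 rose in knockout and 1 in wild-type cells and none fell, with median log2 differences of 0.46 and -0.25. Their mean log2 level was 7.03 to 7.21 in knockout cocultured and 6.61 to 7.68 in wild-type cocultured cells. In knockout BMMCs it was 5.45 to 5.93 and in wild-type BMMCs 6.08 to 6.27, below every cocultured array. Fibroblast markers also moved with coculture. Of 18, 17 were tested, and 7 rose in knockout and 13 in wild-type cells. Their sum spanned 13.7 to 59.7 in knockout cocultured cells and 15.2 to 407 in wild-type cocultured cells, against 0.561 to 2.43 in knockout BMMCs and 0.751 to 1.03 in wild-type BMMCs. Col1a1, the collagen chain used here as the fibroblast signal, was read by its brightest probe. That probe was well above background on all 7 cocultured arrays and on 0 of 7 BMMC arrays. Another Col1a1 probe was so on 4 of 7 cocultured arrays, with an SD of 0.674 for its difference from the brightest. The dimmest was so on 2 of 7, with an SD of 1.91. On knockout cocultured replicate 3 the dimmest probe read -5.53, against 3.25 for the brightest. Neither of these other probes was used as the fibroblast signal. Thy1 was well above background on 0 of 14 arrays. Macrophage markers, 7 tested of 9, summed to 5.59 to 9.65 in knockout cocultured, 6.38 to 12.7 in wild-type cocultured, 5.85 to 15.0 in knockout BMMC and 3.08 to 55.1 in wild-type BMMC arrays. Of the 7, only Cd68 and Cd14 passed after coculture, and both rose in each genotype. The median log2 difference over the 7 was -1.17 in knockout and -0.90 in wild-type cells. Adgre1 was well above background on all 14 arrays and Itgam on 0. Neutrophil markers, 2 tested of 8, summed to at most 0.181 in cocultured cells and reached 5.29 in a wild-type BMMC array. Of 3 dendritic cell, 2 endothelial, 3 megakaryocyte and 2 lymphocyte markers tested, H2-Ab1 fell in both genotypes and none of the others passed. In such bulk samples, fewer cells of a type and less RNA per cell cannot be told apart, and neither can a chemokine message from mast cells and one from fibroblasts carried over.

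After coculture 5 of the 8 chemokines passed as higher in each genotype. Cxcl1, Cxcl5, Cxcl10 and Cx3cl1 rose in both, Cxcl2 passed in knockout cells and Cxcl12 in wild-type cells. In knockout cells 7.87% of the 15846 genes tested passed as higher after coculture and 14.4% in either direction. In wild-type cells the shares were 6.13% and 13.1%. Cxcl9 and Cxcl14 were well above background on 0 of 14 arrays and were not tested. A gene was tested if 3 or more arrays read it well above background, and Cxcl1, Cxcl2, Cxcl5, Cxcl10 and Cxcl12 met this through cocultured arrays alone, which by itself favours a higher level there. With no such filter 3 of the 8 passed in knockout cells (Cxcl1, Cxcl5 and Cxcl10) and 5 in wild-type cells. Over all genes 1347 then passed in knockout cells in either direction, and the count for wild-type cells is not given here. That fit tested more genes than the 15846 above, so its counts are not over the same set.

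**Figure D2:**
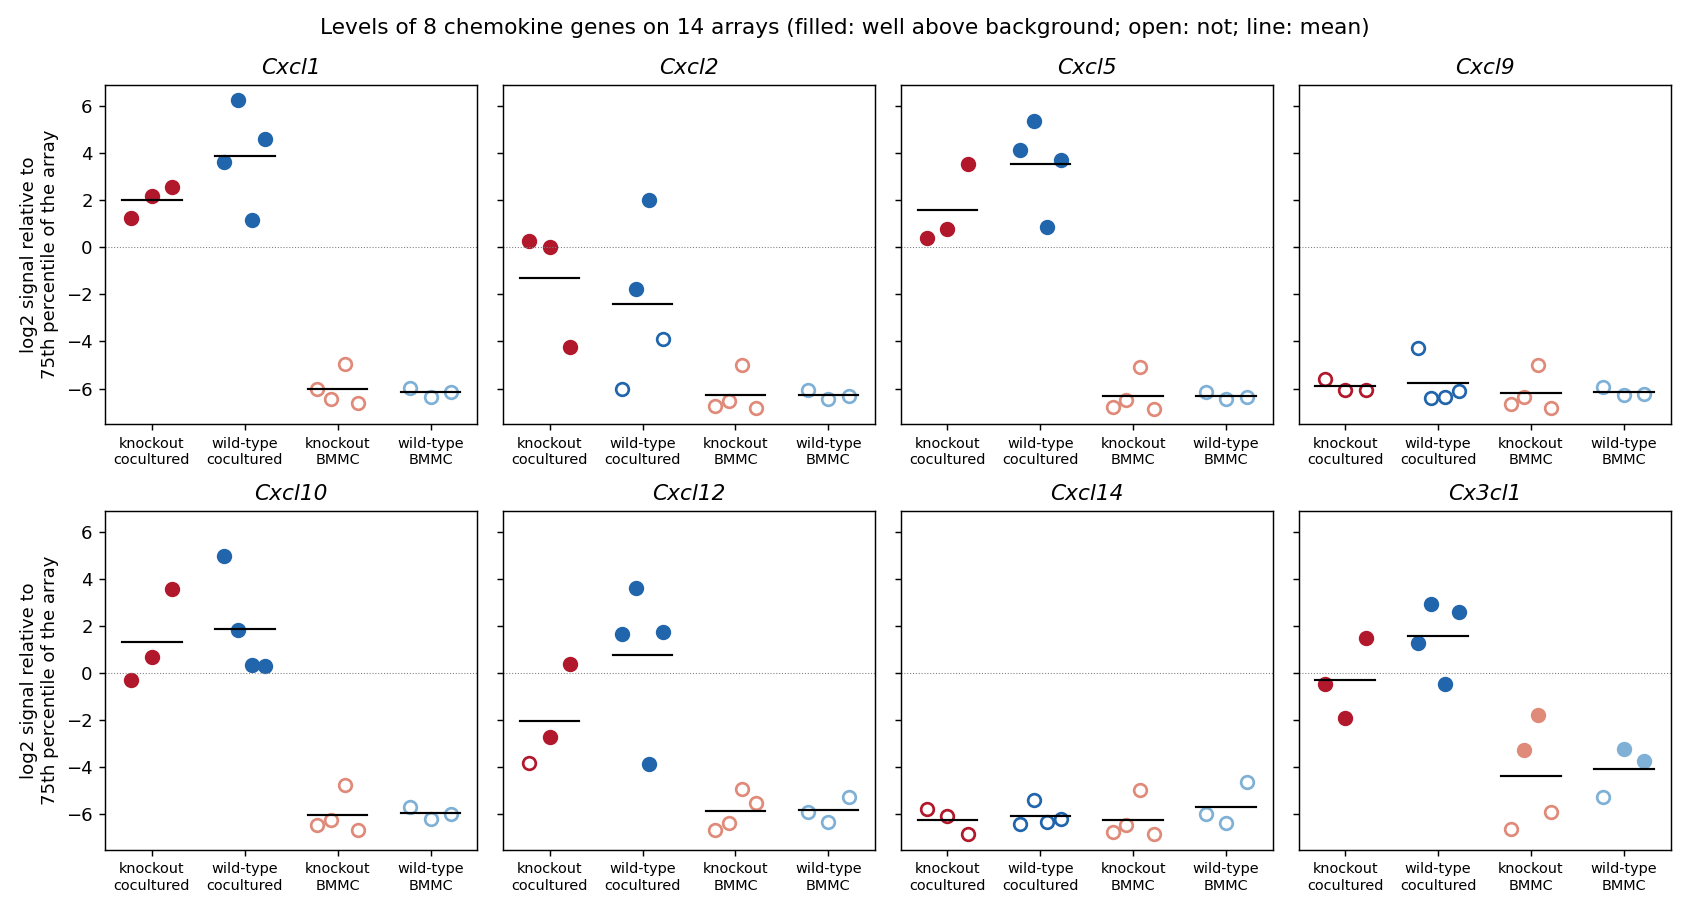
Level of each of the 8 chemokines (log2 signal relative to the array's 75th percentile) on every array of knockout cocultured, wild-type cocultured, knockout BMMC and wild-type BMMC cells; filled points were well above background, open points were not, and the line is the group mean. Cxcl1, Cxcl5, Cxcl10 and Cxcl12 separate all cocultured from all BMMC arrays. Cxcl2 and Cxcl12 spread most within the cocultured groups, and Cxcl9 and Cxcl14 have open points only.

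Of the neutrophil attractants, Cxcl1 read 1.23, 2.20 and 2.57 in knockout cocultured cells and 3.61, 6.24, 1.15 and 4.59 in wild-type cocultured cells, against -6.62 to -4.96 in knockout BMMCs and -6.36 to -5.98 in wild-type BMMCs. Every cocultured array lay above every BMMC array, and no BMMC array was well above background. A fold against such a group was computed against the lowest signal well above background on each of its arrays and is a lower bound. Cxcl1 was at least 63.2-fold higher in knockout cocultured cells than in knockout BMMCs (limma, adjusted p = 0.000133) and at least 237-fold higher in wild-type cocultured cells than in wild-type BMMCs (adjusted p = 1.93e-05). Cxcl5 had the same shape. It read 0.39, 0.78 and 3.56 in knockout cocultured cells and 4.14, 5.38, 0.87 and 3.69 in wild-type cocultured cells, against at most -5.08 in knockout BMMCs and -6.13 in wild-type BMMCs, where no array was well above background. The bound was 47.2-fold in knockout cells (adjusted p = 0.000268) and 182-fold in wild-type cells (adjusted p = 3.79e-05).

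Cxcl2 did not follow its neighbour Cxcl1 from array to array. It read 0.28, 0.02 and -4.22 in knockout cocultured cells, all well above background. In wild-type cocultured cells it read -6.03, -1.78, 2.02 and -3.91, of which replicates 2 and 3 were well above background. BMMC readings were -6.82 to -4.98 in knockout and -6.46 to -6.05 in wild-type cells, none well above background. The arrays with the highest Cxcl2 were wild-type replicate 3 and knockout replicates 1 and 2, which had the lowest Cxcl5 of the cocultured arrays. Cxcl2 was at least 6.40-fold higher after coculture in knockout cells (adjusted p = 0.0454) and at least 2.96-fold in wild-type cells, where it did not pass (adjusted p = 0.121). The call in knockout cells ended with the array's median in place of the 75th percentile (adjusted p = 0.0558), with dim readings raised to the lowest signal well above background (0.206) and with slide as a block (0.0903). It passed in 3 of the 14 fits that left out 1 array. In wild-type cells it passed in the fit without wild-type cocultured replicate 1, where 6 members were called.

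The interferon-inducible Cxcl10 read -0.31, 0.69 and 3.56 in knockout cocultured cells and 4.98, 1.82, 0.33 and 0.28 in wild-type cocultured cells, all well above background. BMMC readings were at most -4.76 in knockout and -5.70 in wild-type cells, none well above background. Knockout replicate 3 and wild-type replicate 1 stood above the other 5 cocultured arrays, and the cocultured genotypes overlapped. The bound was 39.4-fold in knockout cells (adjusted p = 0.00108) and 57.4-fold in wild-type cells (adjusted p = 0.000535). The call ended with normexp background correction in knockout cells (adjusted p = 0.0649). It also ended with the authors' normalized values, most of which were set to a floor, in knockout (0.249) and wild-type cells (0.0787). Its relative Cxcl9 read -6.07 to -5.60 in knockout cocultured, -6.40 to -4.26 in wild-type cocultured, -6.84 to -5.00 in knockout BMMC and -6.29 to -5.95 in wild-type BMMC arrays, with no reading well above background. Cxcl9 was therefore not detectable here, also on the arrays where Cxcl10 was highest.

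Cxcl12, the stromal chemokine, had the widest range after Cxcl2 of the 6 tested members within cocultured cells, 176-fold from the lowest to the highest array. It read -3.83, -2.71 and 0.39 in knockout cocultured cells, where replicate 1 was not well above background, and 1.65, 3.60, -3.86 and 1.73 in wild-type cocultured cells. No BMMC array was well above background, and the readings there were -6.68 to -4.94 in knockout and -6.31 to -5.24 in wild-type cells. It was at least 27.3-fold higher in wild-type cocultured cells (adjusted p = 0.00848). In knockout cells the bound was 3.82-fold and did not pass (adjusted p = 0.0885). A second Cxcl12 probe, assigned to another transcript and lying at chr6:117124474-117124533, was well above background on 4 of 7 cocultured arrays. It read -5.49, -4.90 and -0.26 in knockout cocultured cells and 0.39, 3.22, -4.84 and 1.31 in wild-type cocultured cells, with the same arrays high and low.

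Cx3cl1 was the only tested member above background in some BMMCs, on 2 of 4 knockout and 2 of 3 wild-type arrays. It read -0.48, -1.92 and 1.48 in knockout cocultured cells and 1.27, 2.93, -0.49 and 2.60 in wild-type cocultured cells. BMMC readings were -6.61, -3.29, -1.77 and -5.90 in knockout and -5.27, -3.24 and -3.75 in wild-type cells. Knockout cocultured cells overlapped knockout BMMCs, while wild-type cocultured cells lay wholly above wild-type BMMCs. The log2 difference was 4.09 ± 1.19 (SE) in knockout cells (adjusted p = 0.0375) and 5.66 ± 1.19 (SE) in wild-type cells (adjusted p = 0.00769). In knockout cells the call ended with normexp background correction (adjusted p = 0.0705), with the replicate block (0.0816) and without both cocultured arrays of slide 4 (0.0686). It also ended in the fits without knockout cocultured replicate 1 or 3, knockout BMMC replicate 1, 2 or 4, or wild-type BMMC replicate 3. The second Cx3cl1 probe, at chr8:97296742-97296801, was well above background on 2 of 14 arrays, wild-type cocultured replicates 1 and 2, at -2.06 and -3.98. In knockout cells it was at background in both groups, so it does not show whether Cx3cl1 differed there. Cxcl14, whose receptor is not settled, read -6.82 to -5.76 in knockout cocultured, -6.43 to -5.39 in wild-type cocultured, -6.82 to -4.96 in knockout BMMC and -6.37 to -4.64 in wild-type BMMC arrays, none well above background.

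Without both cocultured arrays of slide 4, 5 members again passed in each genotype. In either direction, 4873 of the 15846 genes then passed in knockout and 3769 in wild-type cells, against 2288 and 2074 on all arrays. In knockout cells Cxcl12 then passed (adjusted p = 0.0128) and Cx3cl1 did not (0.0686), and in wild-type cells the 5 were the same genes. Leaving out knockout cocultured replicate 1, knockout BMMC replicate 1, 2 or 4 or wild-type BMMC replicate 3 left 3 calls in knockout cells, Cxcl1, Cxcl5 and Cxcl10. With the replicate number as a block 3 remained there, the same genes.

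**Figure D3:**
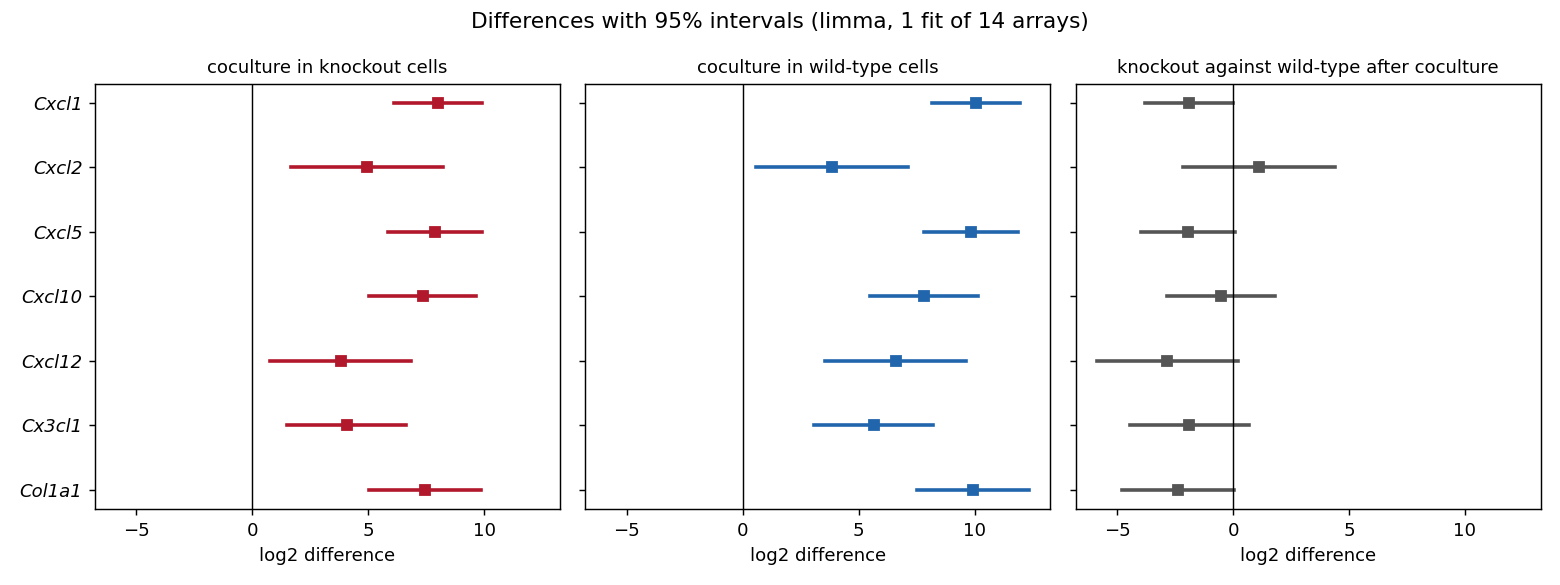
Log2 differences (squares) with 95% intervals (lines) from limma's fit of 14 arrays, for coculture in knockout cells, coculture in wild-type cells, and knockout against wild-type after coculture. All members but Cx3cl1 rest in the coculture panels on BMMC readings not well above background, so those squares are not measured folds. In the third panel the intervals of all members but Cxcl1 include 0. The spread behind them is pooled over all 4 groups, BMMC readings at background included, so they may be too narrow.

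The levels of 3 of the 6 tested members, Cxcl1, Cxcl5 and Cxcl12, followed the fibroblast signal of the same array. Col1a1 read -0.01, 1.31 and 3.25 in knockout cocultured cells and 4.42, 6.31, 0.21 and 4.60 in wild-type cocultured cells. Over the 7 cocultured arrays Cxcl12 correlated with it at r = 0.997 (rho = 0.964), with p = 0.000397 by exact permutation of pairings, two-sided, and an adjusted p of 0.0403 over 15845 genes. For Cxcl12 0.00631% of genes had a higher r. That share was 0.606% for Cxcl5, 1.34% for Cxcl1, 5.47% for Cx3cl1, 28.8% for Cxcl10 and 80.3% for Cxcl2. Cxcl5 reached r = 0.977 (rho = 0.929; exact permutation p = 0.00139, adjusted p = 0.0492) and Cxcl1 r = 0.961 (rho = 0.964; exact permutation p = 0.000397, adjusted p = 0.0403). These 3 passed, as did 1.95% of all genes with a positive r. Cx3cl1 had r = 0.877 (rho = 0.821) and did not pass (exact permutation p = 0.0159, adjusted p = 0.114).

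Cxcl10 and Cxcl2 did not pass. Cxcl10 had r = 0.517 (rho = 0.464; exact permutation p = 0.242, adjusted p = 0.401), and wild-type replicate 4 was high in Col1a1 (4.60) and low in Cxcl10 (0.28). For Cxcl2 the correlation was negative, with r = -0.715 (rho = -0.643; exact permutation p = 0.0819, adjusted p = 0.216). By rank, no member passed after adjustment over all genes, the lowest adjusted p being 0.0882 for Cxcl1 and Cxcl12. Without the arrays with the highest and the lowest Col1a1, wild-type replicate 2 and knockout replicate 1, r over the other 5 was 0.997 for Cxcl12, 0.950 for Cxcl5, 0.938 for Cxcl1, 0.842 for Cx3cl1, 0.519 for Cxcl10 and -0.951 for Cxcl2. No slide held more than 2 cocultured arrays, so no value within a slide can be given. With the median in place of the 75th percentile as the scale, 0 members passed, with adjusted p of 0.0610 to 0.0682 for the same 3. Under quantile scaling Cxcl5 did not pass (r = 0.979, exact permutation, adjusted p = 0.0693).

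**Figure D4:**
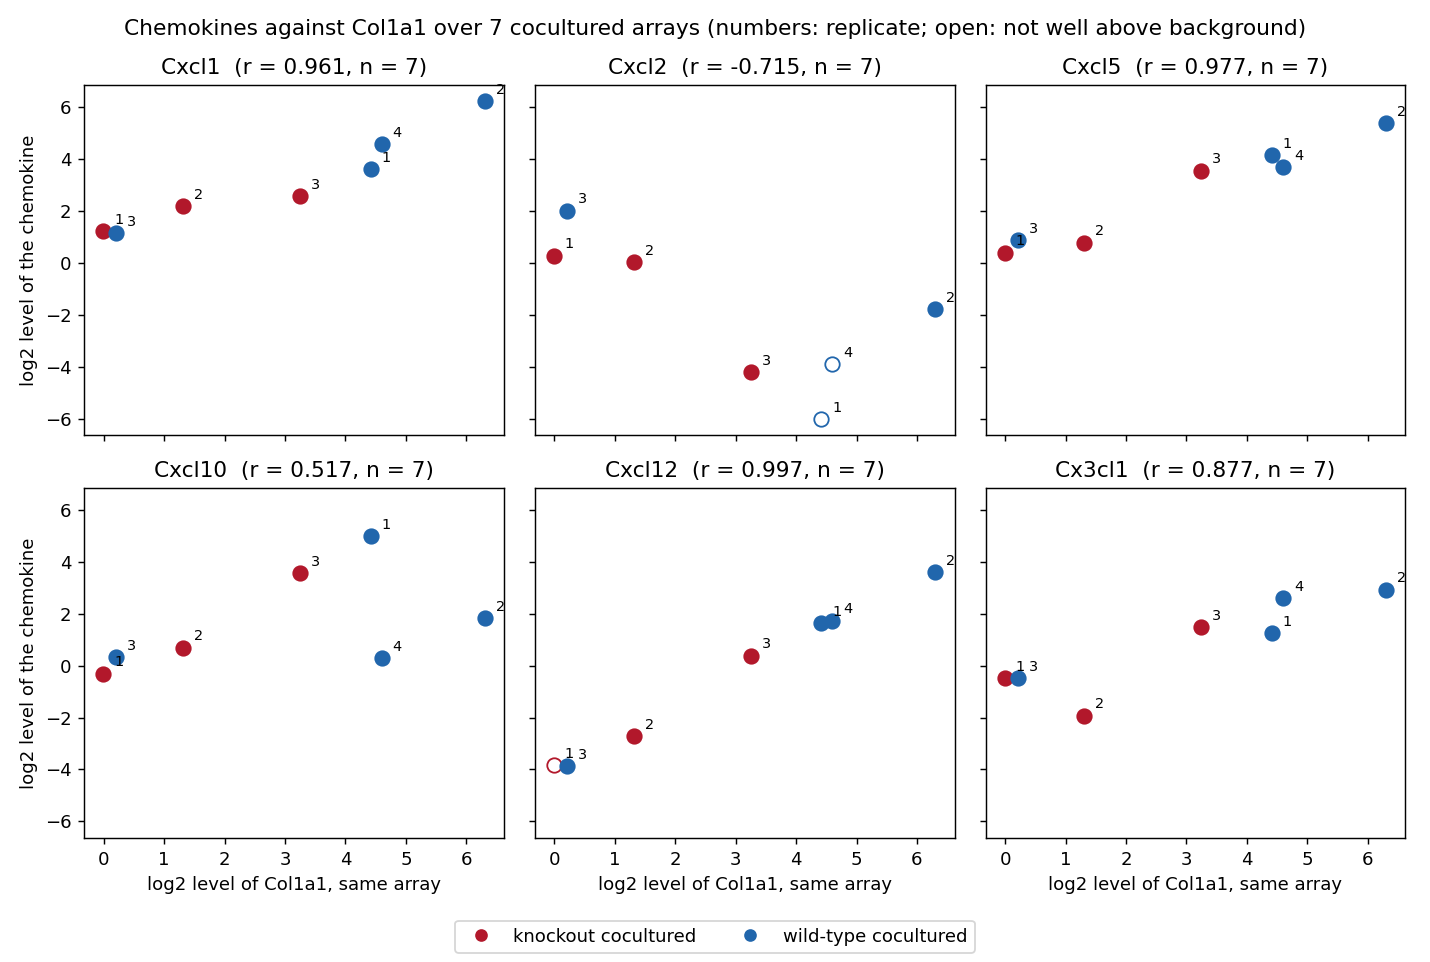
Level of each tested chemokine against the Col1a1 level of the same array over 7 cocultured arrays, both in log2 relative to the array's 75th percentile; red points are knockout, blue points wild-type, numbers give the replicate and open points were not well above background. Cxcl12, Cxcl5 and Cxcl1 rise with Col1a1, Cxcl2 is highest on the 3 arrays with the least Col1a1, and Cxcl10 is highest on knockout replicate 3 and wild-type replicate 1.

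A fit over the same 7 arrays with genotype as a term gave the change in each member per unit of log2 Col1a1. The slope was 1.26 ± 0.0757 (SE) for Cxcl12 (limma, adjusted p = 0.00124), 0.79 ± 0.0968 for Cxcl5 (adjusted p = 0.00778) and 0.71 ± 0.109 for Cxcl1 (adjusted p = 0.0167). These 3 of 6 members passed, against 4.68% of genes in either direction and 3.83% with a positive slope. For Cx3cl1 it was 0.59 (adjusted p = 0.0783), for Cxcl10 0.49 (0.323) and for Cxcl2 -0.998 (0.129). The differences from Col1a1 within an array had an SD of 0.632 for Cxcl12, 0.646 for Cxcl5, 0.819 for Cxcl1 and 1.21 for Cx3cl1, against 2.19 for Cxcl10 and 4.92 for Cxcl2. Over all 14 arrays, which fall into cocultured and BMMC clusters, the genes most like Cxcl12 were Ptn (r = 0.993), Cd248 (0.992) and Pdgfra (0.990). Those most like Cxcl5 were Osmr (0.998), Col3a1 (0.996) and Col1a1 (0.996), and for Cxcl1 they were Pdzrn3 (0.996), Dcn (0.996) and Ptx3 (0.995). For Cx3cl1 they were Plxnd1 (0.972), Pdlim7 (0.957) and Pxdc1 (0.953), for Cxcl10 Sema6d (0.981), Nav3 (0.981) and Gsta4 (0.979), and for Cxcl2 they included Ccdc184 (0.979) and Itgav (0.962).

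Knockout and wild-type cells were not separated by any chemokine after coculture. All 6 tested members overlapped between the genotypes and 0 passed, as did 0% of the 15846 genes. At an unadjusted p under 0.05 there was 1 member, Cxcl1, against 3.81% of all genes. Cxcl1 averaged 2.0 ± 0.689 in knockout (SD, n = 3) and 3.90 ± 2.13 in wild-type cocultured cells (SD, n = 4), a log2 difference of -1.90 (95% interval -3.79 to -0.01, adjusted p = 0.791). Cxcl12 differed by -2.83 (-5.87 to 0.21), Cxcl5 by -1.94 (-3.98 to 0.09), Cx3cl1 by -1.88 (-4.45 to 0.68), Cxcl10 by -0.54 (-2.86 to 1.79) and Cxcl2 by 1.12 (-2.16 to 4.40). Col1a1 itself differed by -2.37 (-4.79 to 0.06). These intervals are wide, and the misses do not show that the genotypes were alike. They also rest on 1 spread pooled over all 4 groups. For all members but Cx3cl1 that spread took in BMMC readings at background. For Cxcl1 those had an SD of 0.747 in knockout and 0.190 in wild-type BMMCs. The intervals may therefore be too narrow for cocultured cells, and Cxcl1 is not set apart by its own.

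Slides 2 and 4 each held 1 cocultured array of both genotypes, and every tested member took opposite signs on them. The share of all genes that did so was not counted, so the signs are given as a description and not as particular to chemokines. On slide 2 the knockout array was lower by a log2 difference of -4.35 for Cxcl12, -4.29 for Cxcl10, -3.36 for Cxcl5, -3.19 for Cx3cl1 and -1.41 for Cxcl1, and higher by at least 4.19 for Cxcl2, whose wild-type reading was not well above background. On slide 4 it was higher by 4.25 for Cxcl12, 3.24 for Cxcl10, 2.69 for Cxcl5, 1.97 for Cx3cl1 and 1.41 for Cxcl1, and differed by -6.24 for Cxcl2. Col1a1 did the same, with -3.11 on slide 2 and 3.04 on slide 4. Slides 1 and 3 held cocultured arrays of 1 genotype only.

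**Figure D5:**
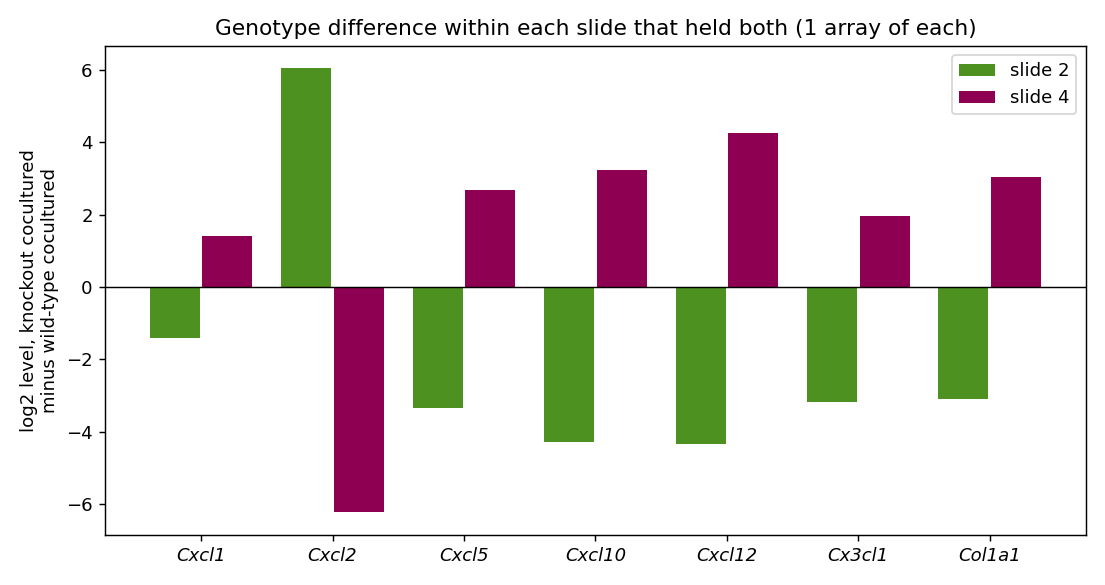
Log2 level in the knockout cocultured array minus that in the wild-type cocultured array of the same slide, for the 6 tested chemokines and Col1a1, on slide 2 (green) and slide 4 (purple), with 1 array of each genotype per slide and no error. Each gene has one sign on slide 2 and the other on slide 4, and Cxcl2 is reversed relative to the rest. The Cxcl2 bar of slide 2 uses a wild-type reading not well above background.

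Without the 2 cocultured arrays of slide 4, 4 of the 6 members passed between the genotypes, against 25.4% of all genes. Cxcl12 then differed by -5.59 (limma, adjusted p = 0.00124), Cxcl5 by -3.82 (adjusted p = 0.00219) and Cxcl1 by -3.10 (adjusted p = 0.0109), and Cxcl2 by 4.06 (adjusted p = 0.0137), with 1 of the 3 wild-type readings of Cxcl2 well above background. Col1a1 differed by -4.46 (adjusted p = 0.00194) in the same fit. The difference between the genotypes in the response to coculture passed for 0 of 6 members and 0% of genes on all arrays, with 0 of 6 members and 0.808% of genes at an unadjusted p under 0.05. Without the slide 4 pair it passed for 3 members, Cxcl12 (-5.54), Cxcl5 (-3.83) and Cxcl1 (-3.24), and for 12.8% of genes. With all 7 cocultured arrays and the Col1a1 level as a covariate, 0 members passed. Without the covariate 0 members and 0% of genes had passed on all arrays, so this count is not particular to chemokines or to the covariate. In the covariate fit the genotype difference was -0.21 for Cxcl1, -0.08 for Cxcl5, 0.15 for Cxcl12, -0.48 for Cx3cl1, 0.63 for Cxcl10 and -1.24 for Cxcl2. Whether genotype or the amount of fibroblast RNA on each array sets the differences without slide 4 cannot be told apart on these 5 arrays.

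Before coculture, Cx3cl1 was the only member with readings well above background in both genotypes. It averaged -4.39 ± 2.26 in knockout BMMCs (SD, n = 4) and -4.09 ± 1.06 in wild-type BMMCs (SD, n = 3), a log2 difference of -0.31 (95% interval -2.87 to 2.26; limma, adjusted p = 1). Of all genes 0% passed in this comparison, and 1.05% had an unadjusted p under 0.05. The order of the group means was wild-type cocultured, knockout cocultured and then both BMMC groups for Cxcl1, Cxcl5, Cxcl10, Cxcl12 and Cx3cl1. Neighbouring groups of one culture condition overlapped for each of these 5. For Cxcl2 knockout cocultured cells stood first by mean.

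Of the receptors, 3 of 9 could be tested, and 1 rose and 1 fell in each genotype, against 6.57% of all genes that fell in knockout and 6.96% in wild-type cells. Ackr3, the scavenger receptor for Cxcl12, was well above background on 7 of 7 cocultured arrays and on no BMMC array, and was at least 5.25-fold higher in knockout (adjusted p = 0.00231) and at least 11.2-fold higher in wild-type cocultured cells (adjusted p = 0.000535). Cx3cr1, the receptor of Cx3cl1, fell by 3.96 on the log2 scale in knockout cells (limma, adjusted p = 0.00387) and by 3.16 in wild-type cells (adjusted p = 0.0122). It read -2.54, -0.56 and -1.66 in knockout cocultured cells and -0.94, 0.08, -3.14 and 0.37 in wild-type cocultured cells, against 1.95 to 3.05 in knockout BMMCs and 1.67 to 2.59 in wild-type BMMCs, with no overlap. Ackr1, an atypical receptor that binds many chemokines, differed by 0.25 in knockout (adjusted p = 0.73) and 0.35 in wild-type cells (adjusted p = 0.64). The signalling receptors Cxcr2, Cxcr3 and Cxcr4 are named here after their values were seen. Cxcr2 was well above background on 0 of 14 arrays, Cxcr3 on 1 and Cxcr4 on 2.

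Among 8 other CXC ligands 2 were tested. Cxcl16, which like Cx3cl1 is anchored in the membrane, rose in wild-type cells by 1.67 ± 0.497 (SE) on the log2 scale (adjusted p = 0.0427) and differed by 0.45 in knockout cells (adjusted p = 0.593). Pf4, a platelet chemokine also counted among the megakaryocyte markers, did not pass. Cxcl3, the closest relative of Cxcl2, was well above background on 0 of 14 arrays.

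Of 13 genes of the NF-kB pathway, 12 were tested, and 6 rose and 1 fell in knockout cells, while 5 rose and 1 fell in wild-type cells, with medians over the 12 of 0.89 and 0.99 against 0.07 and -0.05 over all genes. Relb, an NF-kB subunit, rose by 3.11 (limma, adjusted p = 8.93e-05) and 3.52 (adjusted p = 2.78e-05) in knockout and wild-type cells. Nfkbia, the inhibitor that NF-kB itself induces, rose by 3.64 (adjusted p = 0.00151) and 3.56 (adjusted p = 0.00149), and the subunit Rel by 4.00 (adjusted p = 0.000191) and 2.97 (adjusted p = 0.00116). Of 15 inducing cytokines and their receptors, 12 were tested, and 3 rose in knockout and 4 in wild-type cells, with none falling, against 7.87% of all genes that rose and 6.57% that fell in knockout cells and 6.13% and 6.96% in wild-type cells. Tnf, which induces Cxcl1 and Cxcl2 in many cells, rose by 4.68 (adjusted p = 0.000291) in knockout and 3.63 (adjusted p = 0.00128) in wild-type cells. The receptors Il1r1 and Tnfrsf1a rose as well. Il1r1 was at least 27.4-fold higher in knockout and 63.3-fold higher in wild-type cocultured cells (adjusted p = 0.000217 and 6.23e-05), with no BMMC array well above background.

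Of the interferon route all 9 genes were tested. Of these, 1 rose in each genotype and 1 fell in knockout cells, against 14.4% of all genes that passed in knockout and 13.1% in wild-type cells, with medians of -0.55 and -0.21. Jak2, a kinase below cytokine receptors, rose by 1.47 (limma, adjusted p = 0.00357) and 1.37 (adjusted p = 0.0048), and Stat2, a subunit of the factor that binds the ISRE, fell by 1.16 in knockout cells (adjusted p = 0.0256) and differed by -0.93 in wild-type cells (adjusted p = 0.0635). Of 8 proteases that cut or trim these ligands, 6 were tested and 0 passed in knockout and 1 in wild-type cells. That was Mmp2, a gelatinase that also trims Cxcl12, at least 5.22-fold higher in wild-type cocultured cells (adjusted p = 0.045), where 3 of 4 arrays were well above background and the groups overlapped. None of these lists had a member that passed between the genotypes, before or after coculture. The fibroblast marker sum given above was also higher on the cocultured arrays, and its part in these counts was not tested.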

How the data were processed

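Total RNA (450 ng per sample) was read on 14 one-colour Agilent arrays. The deposited processed intensity of each spot had been detrended across the slide and by signal, with no further background correction, in Feature Extraction 9.5.1.1, per the file headers. The authors also deposited a table of 25193 probes, whose normalized intensity equalled the raw intensity minus a constant per array and was used as an alternative. On each array 59.0% to 59.8% of these normalized values were below 0. All values below 1 were set to 1 before log2, so most readings of that alternative share 1 value. The 14 columns of calls there and the authors' list of significant genes were not used.

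Processed intensity was divided by the array's 75th percentile over non-control spots without outlier flags, and log2 was taken. A probe entered if 3 or more arrays read it well above background (23614, less 371 with a missing value). Each gene was represented by its brightest such probe on average, giving 15846 genes. Of these, 12927 were named through RefSeq and the others kept the file's name. A single limma 3.58.1 fit of the 4 groups (R 4.3.3, with the package data.table at version 1.17.8) tested 5 contrasts, two-sided, with Benjamini-Hochberg adjustment over all genes and a threshold of 0.05. The fit was tested on simulated data with 200 changed genes.

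The relation with Col1a1 was tested by exact permutation over 7 arrays, and its p-values were adjusted over all 15845 other genes in place of the members, as first planned. Alternatives were median and quantile scaling, normexp background correction (offset 50), no filter and a stricter filter on dim probes, dim readings raised to the lowest signal well above background, the mean of a gene's probes, the authors' values (floor of 1), slide or replicate number as a block, each array left out, and both cocultured arrays of slide 4 left out. The second probes of Cxcl12 and Cx3cl1 were an alternative chosen after seeing the data.

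Same-numbered knockout and wild-type BMMC arrays deviated together (r = 0.197, 0.499 and 0.487) and lay on shared slides. Cocultured arrays of the genotypes did not (r = -0.434, -0.149 and -0.547), and nor did cocultured and BMMC arrays of one genotype.

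The members and the gene lists were chosen with earlier results of these data known. Named were all members, Col1a1, Pla2g3, of each pathway list up to 3 genes with the lowest adjusted p among those that passed, and the 3 genes most like each tested member, of which 1 is not reported here. Other names fell outside this rule and are to be read as chosen after their values were seen, also where no mark stands beside them. Among these are Thy1, Adgre1, Itgam, Ackr1, Pf4, Cxcl3 and Ifnb1. Promoters are RefSeq's, build GRCm38.p6, while probe positions are mm9.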

Additional observations from a re-analysis of the deposited data

Results flagged for a closer look

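Within groups of 4 arrays, 2 readings lay far from the other 3, and chance gives such a reading in about 1 of 20 groups. Cxcl9 read -4.26 on wild-type cocultured replicate 1, against -6.40 to -6.09 on the other wild-type cocultured arrays. This was also the array with the highest Cxcl10, at 4.98, but its Cxcl9 signal was not well above background. Cxcl2 read -4.98 on knockout BMMC replicate 3, against -6.82 to -6.53 on the other knockout BMMC arrays, and was not well above background either. That array had the fewest probes well above background, 42.6%, and the highest reading of its group for Cxcl1 (-4.96), Cxcl5 (-5.08), Cxcl9 (-5.00) and Cxcl10 (-4.76) too.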

How the results depend on the processing

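Cxcl1 and Cxcl5 passed in both coculture comparisons under every alternative that gave a test. In knockout cells the count of 5 members became 2 with normexp and 2 with the authors' normalized values (Cxcl1 and Cxcl5 in both), 3 of 8 tested with no filter, 3 with the replicate block, and 3 to 6 with 1 array left out (6 without wild-type cocultured replicate 3). In wild-type cells the count of 5 became 2 with the authors' values and was 5 to 6 with 1 array left out. Between the genotypes after coculture the count of 0 became 4, and for the difference in response 3, without both cocultured arrays of slide 4, while leaving out any 1 array gave 0 in both. Members correlated with Col1a1 were 0 with median scaling, and Cxcl5 did not pass with quantile scaling (exact permutation, adjusted p = 0.0693). With fewer than 7 arrays no adjusted p was computed, so no count is given.

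Differences that turned sign had not passed before and did not pass after. Knockout against wild-type after coculture, Cxcl2 was -0.49 with the authors' values and -1.24 with Col1a1 as covariate, and -0.081 to 2.60 with 1 array left out. Cxcl10 was 0.63 and Cxcl12 0.15 with the covariate, and Cxcl10 was -1.66 to 0.51 with 1 array left out. In BMMCs Cx3cl1 was 0.086 with dim readings raised and -1.18 to 0.43 with 1 array left out. In the difference in response, Cxcl2 was -0.49 with the authors' values and -0.094 to 2.59 with 1 array left out, and Cxcl10 was -1.59 to 0.58. The cause was not tested.

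Over all genes, 2288 passed for coculture in knockout cells, against 1410 with median scaling, 905 with normexp, 1347 with no filter, 623 with the authors' values, 1228 with the replicate block and 4873 without the slide 4 pair (1070 to 3104 with 1 array left out). In wild-type cells it was 2074, against 895 with normexp, 829 with the authors' values and 3769 without the slide 4 pair (1121 to 2679 with 1 array left out). The replicate block changed no other call of members than those of Cxcl2 (adjusted p = 0.125) and Cx3cl1 (adjusted p = 0.0816) in knockout cells. Fold bounds for Cxcl1, Cxcl2, Cxcl5, Cxcl10 and Cxcl12 are limited by BMMC signals at background.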

Other observations

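The genes in this paragraph were chosen after their values were seen, and the values are given as a description. Wild-type cocultured replicate 3 and knockout cocultured replicates 1 and 2, which had the highest Cxcl2, also had the highest Il6, an inflammatory cytokine. Il6 read 7.43, 7.59 and 3.53 in knockout cocultured cells and 4.22, 4.32, 7.34 and 3.74 in wild-type cocultured cells. Tnf, which induces many chemokines, read 4.48, 5.64 and 3.23 in knockout cocultured cells and 2.79, 3.10, 4.68 and 3.62 in wild-type cocultured cells, with the same 3 arrays highest. Il1b read 5.05, 3.78 and -1.44 in knockout cocultured cells and -1.62, 3.04, 5.58 and 3.53 in wild-type cocultured cells. Il1a was well above background on those 3 cocultured arrays, at -1.51 and -2.13 in knockout and 1.40 in wild-type cells, and on no other cocultured array. These arrays also had the lowest Col1a1 of the 7.

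Ifnb1 was likewise chosen after its values were seen, and they are given as a description. It encodes interferon beta, an inducer of Cxcl10. Of all 14 arrays, it was well above background only on knockout cocultured replicate 3 (-1.44) and wild-type cocultured replicate 1 (0.07). These were the arrays with the highest Cxcl10, at 3.56 and 4.98. The list of 9 interferon route genes was not highest there, with a mean level of 1.25 on the knockout and 1.35 on the wild-type array, against 2.37 and 2.15 on wild-type cocultured replicates 2 and 4.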
